A study of Mus musculus with 24 samples.

Results

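The Ier, Btg and Gadd45 genes are 3 small families of early-response genes. They were followed here as 10 genes named by symbol (Ier2, Ier3, Ier5, Ier5l, Btg1, Btg2, Btg3, Gadd45a, Gadd45b and Gadd45g), of 55177 genes with at least 1 matched transcript. The rule is a list of symbols with no threshold on a measured value. The list was chosen with earlier results of these data known. All 10 genes passed the low-count filter in every fit, so that no member is left out of the counts below.

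Early-response genes are transcribed within minutes of a stimulus, without new protein synthesis, and in neurons the trigger is often calcium entry during depolarization. Beside the well-known transcription factors such as Fos, the class holds regulators of growth arrest and stress. The Ier proteins are nuclear or signalling adaptors: Ier5 and its relative Ier5l bring the phosphatase PP2A to its substrates, among them the heat-shock factor HSF1, and Ier3 acts on cell survival and on ERK signalling. The Btg proteins are antiproliferative adaptors that bind the CCR4-NOT deadenylase and hasten mRNA decay. The Gadd45 proteins bind MAP3K4, PCNA and cyclin-dependent kinase complexes, and Gadd45b is known in neurons as an activity-induced gene linked to DNA demethylation.

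The study used primary neurons from the cortex of mouse embryos at embryonic day 16.5, kept in culture for 7 or 18 days in vitro (DIV7, DIV18). At both ages neuronal firing was silenced overnight with 1 µM tetrodotoxin and 100 µM D-AP5, and the depolarized ones were then exposed to 50 mM KCl for 30 min. The DIV7 cultures were wild type, were treated with 0.1% DMSO and gave 2 resting and 2 depolarized libraries from poly(A) RNA. The 20 DIV18 libraries were made from RNA depleted of ribosomal RNA. They came from cultures with a non-targeting guide RNA (NT, 2 resting and 2 depolarized), from Smarcc2 knockout cultures with vector (Vec, 3 and 3), and from knockout cultures given back wild-type Smarcc2 (WT, 2 resting and 3 depolarized). The substituted protein S586E was given back in resting cultures alone (3 libraries) and S586A in depolarized cultures alone (2 libraries). Per the labels' protocols the cortex of each embryo was a biological replicate. These are bulk samples, in which fewer cells of a type and less RNA per cell cannot be told apart.

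Libraries held 24536056 to 30135576 estimated counts at DIV7 and 14510199 to 24024959 at DIV18. Levels are given as counts normalised by TMM and scaled to one library total (CPM), separately at each age, and differences as log2 fold changes with their standard error (SE). Smarcc2, a subunit of BAF chromatin remodelling complexes and the targeted gene, stood at 47.1 to 64.1 CPM in the knockout with vector, against 237 to 283 in NT. With wild-type addback it stood at 756 to 816 at rest and 737 to 1089 under KCl. The substituted forms stood higher, at 1164 to 1276 in resting S586E and 1303 to 1340 in depolarized S586A cultures. Fos, a gene of the stimulus, rose at DIV7 from 3.65 and 4.47 to 598 and 618 CPM. At DIV18 Fos lay at 2.75 to 8.34 CPM in 10 resting and 32.7 to 197 in 10 depolarized libraries, which did not overlap. All 7 neuronal markers were above 1 CPM in every group.

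In the genome the members are short genes. Their median span was 2522.5 bases, against 24198.5 for the 15326 protein-coding genes tested at DIV7, and 9 of the 10 span under 6000 bases, as do 14.1% of those genes. Ier2 (chromosome 8, 84661331 to 84662852, minus strand), Ier5 (chromosome 1, 155096361 to 155099636, minus) and Ier5l (chromosome 2, 30471537 to 30474219, minus) have 1 exon. Ier3 (chromosome 17, 35821684 to 35822923, plus), Btg1 (chromosome 10, 96617006 to 96622809, plus) and Btg2 (chromosome 1, 134075170 to 134079120, minus) have 2. Gadd45a (chromosome 6, 67035096 to 67037457, minus), Gadd45b (chromosome 10, 80930073 to 80932204, plus) and Gadd45g (chromosome 13, 51846678 to 51848468, plus) have 4. Btg3 is the long one, with 5 exons over 44556 bases (chromosome 16, 78332637 to 78377192, minus). Positions are those of GENCODE M21 on GRCm38. Btg3 shares 27138 bases with Cxadr on the other strand, and Gadd45a shares 859 with the non-coding gene E230016M11Rik. Whether reads were assigned by strand is not given in the sources used here, so values of these 2 members may hold reads of those neighbours.

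Promoter sequence is shown for Btg2, Gadd45b and Gadd45g, because these 3 members rose at DIV7 and had fold changes of unlike size at DIV18 (differences between genes were not tested). The RefSeq promoter table (GRCm38.p6, 250 bases before to 50 after the start site) matched 9 of the 10 members, with 10 promoters. Ier2 had no entry in it, so its promoter was not searched, and Btg3 was entered more than once. Each line runs 5′ to 3′ on the gene's own strand, and capitals mark TGACGTCA (the CRE, bound by CREB), TATAAA on the sense strand, and CCAAT on either strand.
Btg2, chr1:134079106-134079405, minus strand: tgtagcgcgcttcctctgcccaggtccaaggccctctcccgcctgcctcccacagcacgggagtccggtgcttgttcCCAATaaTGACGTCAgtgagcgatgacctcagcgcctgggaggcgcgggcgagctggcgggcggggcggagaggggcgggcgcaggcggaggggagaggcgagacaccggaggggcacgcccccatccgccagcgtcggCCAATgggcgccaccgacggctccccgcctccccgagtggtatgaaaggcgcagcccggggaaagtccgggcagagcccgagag
Gadd45b, chr10:80929841-80930140, plus strand: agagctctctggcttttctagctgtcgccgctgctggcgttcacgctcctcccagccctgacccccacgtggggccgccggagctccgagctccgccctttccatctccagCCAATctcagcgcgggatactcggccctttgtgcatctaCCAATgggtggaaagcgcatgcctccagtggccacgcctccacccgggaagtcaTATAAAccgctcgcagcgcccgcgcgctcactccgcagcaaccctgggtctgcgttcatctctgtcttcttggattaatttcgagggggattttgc
Gadd45g, chr13:51846425-51846724, plus strand: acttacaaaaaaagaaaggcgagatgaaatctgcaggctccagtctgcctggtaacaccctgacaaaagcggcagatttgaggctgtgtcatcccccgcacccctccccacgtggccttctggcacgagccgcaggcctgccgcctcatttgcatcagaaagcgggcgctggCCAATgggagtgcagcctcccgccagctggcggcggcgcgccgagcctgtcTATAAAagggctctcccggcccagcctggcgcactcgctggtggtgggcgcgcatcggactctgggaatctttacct
Among the members' promoters TGACGTCA was found in Btg2 alone, at position -166 with the start site counted as 0, and 1.79% of all 32851 promoters in the table hold it. TATAAA was found in Btg1, Gadd45b and Gadd45g, at positions -26, -46 and -27, against 8.32% of all promoters. CCAAT was found in 10 of 10 member promoters and in 37.4% of all. TGACG, the core contained in TGACGTCA, was found in Btg1 and Btg2 (20.8% of all). The AP-1 site TGACTCA (5.2% of all), the CArG box (1.63%) and the Egr site GCGGGGGCG (2.91%) were searched on both strands and were found in none of the 10 windows. A match describes letters in these windows and no binding was measured.

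The annotated 3′ ends differed between members, also within a family. The pentamer ATTTA, which is the core of AU-rich elements that shorten mRNA life, was present in the 3′ UTR of 7 members and in 69.4% of 15230 coding genes tested. It stood at 8.12 and 9.05 per kilobase in Ier3 and Btg3, against a median of 1.3 over those genes. Ier2, Gadd45b and Gadd45g had none. The longer form TTATTTATT was in none of the members and in 8.67% of the genes. Members were scored on their main transcript and the compared genes on their longest coding transcript. For Btg3 the main transcript was Btg3-201. The longer coding transcript Btg3-203, which held 48.72% to 51.93% of the gene's counts at DIV7 under KCl, was not scored as a member.

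Compared per transcript length, as the authors' length-scaled abundance (TPM), resting DIV7 neurons held most of Gadd45g (median 56.1 TPM) and Ier5 (42.4). Ier2 (20.9), Ier5l (17.5) and Btg1 (17.1) followed, and Ier5l and Btg1 overlapped between libraries. Below them came Gadd45b (8.64), Gadd45a (7.40), Btg2 (6.14), Btg3 (4.92) and Ier3 (4.01). After 30 min of KCl the order was led by Gadd45g (201 TPM), Ier2 (134) and Gadd45b (82.6). In 10 resting DIV18 libraries Ier5 (median 22.9 TPM) and Gadd45g (22.6) led and their libraries overlapped, while Ier3 (2.27) and Btg3 (1.86) were again lowest and also overlapped. The culture age and the way RNA was selected changed together, so a level at DIV7 and a level at DIV18 differ for reasons that cannot be told apart.

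**Figure D1:**
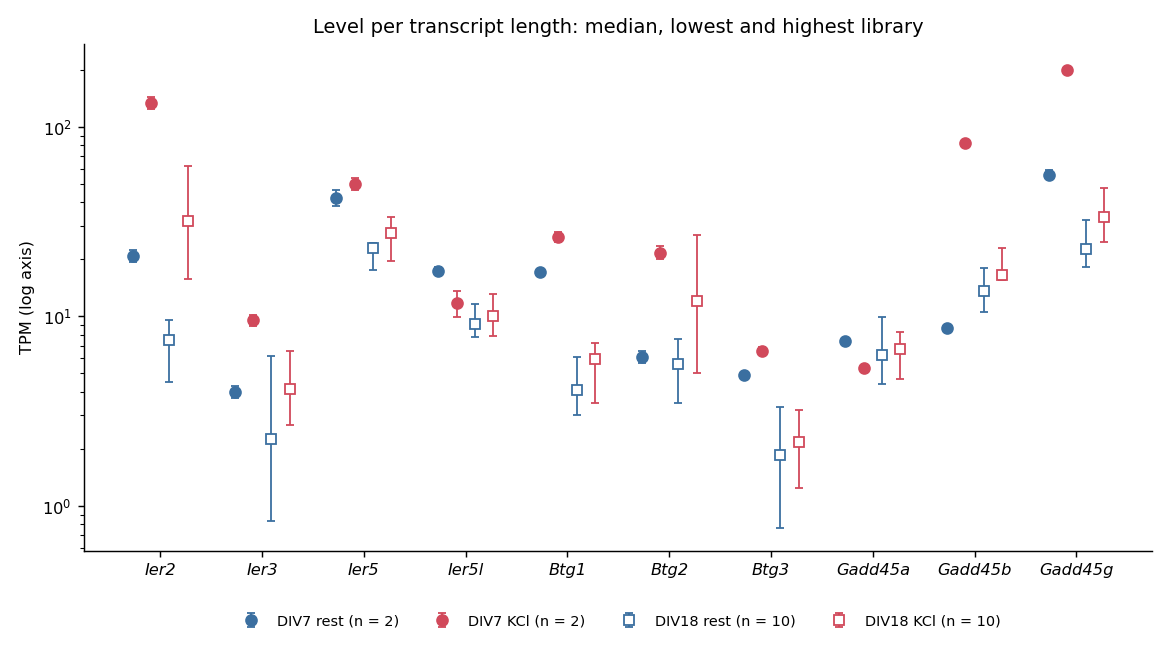
Level of the 10 genes in TPM (log axis) at DIV7 (filled circles, 2 libraries per state) and DIV18 (open squares, 10 per state), at rest (blue) and under KCl (red); the marker is the median and the bars run from the lowest to the highest library. Gadd45b moved from a median of 8.64 to 82.6 TPM at DIV7 and from 13.6 to 16.5 at DIV18.

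At DIV7, 30 min of depolarization raised 7 of the 10 members and lowered 2 (edgeR quasi-likelihood test, Benjamini-Hochberg adjusted p under 0.05 over 19822 genes). Of all genes tested, 7.34% were called higher and 9.67% lower. The list was chosen with earlier results of these data known, so these shares describe the members and are no independent test of them. The median log2 fold change was 1.01 over the members and -0.0014 over all genes. With 2 libraries a group, the p-values measure the spread between these cultures. In the same contrast 2 of 5 astrocyte markers were called lower, with sums of 279 to 320 CPM at rest and 239 to 256 under KCl. Of 7 neuronal markers 1 was called higher and 1 lower, with sums of 3897 to 3945 and 3870.2 to 4005.5 CPM. No marker of the oligodendrocyte lineage, microglia, fibroblasts and vessels or dividing cells was called. The part of these markers' cells in the members' response was not tested.

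Among the Ier genes, Ier2, which encodes a nuclear regulator of transcription, stood at 16.8 and 14.4 CPM at rest and at 94.7 and 111 under KCl. This was a 6.56-fold rise (log2 2.71 (SE 0.104, adjusted p = 2.01e-05)). Ier3 stood at 1.93 and 2.26 CPM at rest and 4.77 and 5.43 under KCl, a low level at which the log2 fold change was 1.29 (SE 0.181, adjusted p = 0.00502). The PP2A adaptor Ier5 was abundant in both states, at 81.1 and 67.4 CPM at rest and 96.9 and 83.3 under KCl. Its groups did not overlap, but its log2 fold change of 0.28 (SE 0.103, adjusted p = 0.113) was not called. Its relative Ier5l went the other way, from 23.5 and 25.8 CPM at rest to 14.3 and 19.7 under KCl, a log2 fold change of -0.54 (SE 0.147, adjusted p = 0.0483). The Ier5l call lay just inside the threshold. It was lost with length offsets (-0.52, adjusted p = 0.0808) and with coding transcripts alone (-0.56, adjusted p = 0.0586). The log2 fold change of Ier5l was -0.60 and -0.47 without resting replicates 1 and 2, and -0.32 without depolarized replicate 1, and it was not called in these fits. The log2 fold change of Ier5 was 0.42 and 0.15 without resting replicates 1 and 2, and 0.17 and 0.38 without depolarized replicates 1 and 2. Ier5 was called without the low-count filter (0.27, adjusted p = 0.000849), a setting whose p-values do not reflect the spread between libraries, as described below.

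The 3 Btg genes rose at DIV7, by unequal amounts. Btg2, the family member first known as a gene induced by nerve growth factor, stood at 8.21 and 9.55 CPM at rest and 29.7 and 34.7 under KCl (log2 fold change 1.86 (SE 0.117, adjusted p = 0.000209)). Btg1 stood at 32.2 and 34.8 and then 54.7 and 56.4 CPM (log2 fold change 0.73 (SE 0.0661, adjusted p = 0.00103)). Btg3, the least abundant, stood at 4.14 and 4.27 and then 6.25 and 6.70 CPM (log2 fold change 0.62 (SE 0.136, adjusted p = 0.0228)). In each of the 3 the resting and depolarized libraries were well apart. The Btg3 call was the weakest and was lost without resting replicate 1 (adjusted p = 0.103), resting replicate 2 (0.0791) or depolarized replicate 2 (0.0697), and with DESeq2 (0.102) or length offsets (0.124).

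The Gadd45 genes split by member. Gadd45b had the largest fold change of the 10 genes: it stood at 5.16 and 4.67 CPM at rest and 39.9 and 40.8 under KCl, a 8.19-fold rise (log2 3.03 (SE 0.0908, adjusted p = 6.24e-06)), which ranked 124 among 19822 genes. Gadd45g stood at 28.6 and 25.6 CPM at rest and 101 and 93.4 under KCl (log2 fold change 1.84 (SE 0.0743, adjusted p = 2.46e-05)). Gadd45a, the member best known as a p53 target after DNA damage, was low and fell, from 3.75 and 3.83 CPM at rest to 2.40 and 2.19 under KCl (log2 fold change -0.72 (SE 0.174, adjusted p = 0.0323)). The fall of Gadd45a was not called when any 1 of the 4 libraries was left out (adjusted p 0.0715 without depolarized replicate 1, 0.102 without depolarized replicate 2, and 0.101 and 0.103 without resting replicates 1 and 2). It was -0.42 with length offsets (adjusted p = 0.241) and had an adjusted p of 0.193 with DESeq2.

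The summed counts of Gadd45b and Gadd45g at DIV7 held more than 1 annotated transcript form. These forms were singled out after their values were seen and were not tested. Gadd45b-203, a coding form with 3 exons where the main form Gadd45b-201 has 4, held 0 to 5 estimated counts at rest and 212 to 236 under KCl, which was 18.91% to 19.99% of the gene. The retained-intron form Gadd45b-202 went from 2 to 8 counts at rest to 44 to 64 under KCl. The retained-intron form Gadd45g-202 went from 16 to 26 counts at rest to 235 to 243 under KCl, or from 2.52% to 3.2% of the gene to 7.89% to 9.46%. At DIV18 Gadd45g-202 held 0 to 14 counts in 10 resting and 14 to 70 in 10 depolarized libraries, and Gadd45b-203 held 0 to 12 and 6 to 28. Estimated counts of forms that share exons are the authors' assignment of reads and can be split between forms in error.

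**Figure D2:**
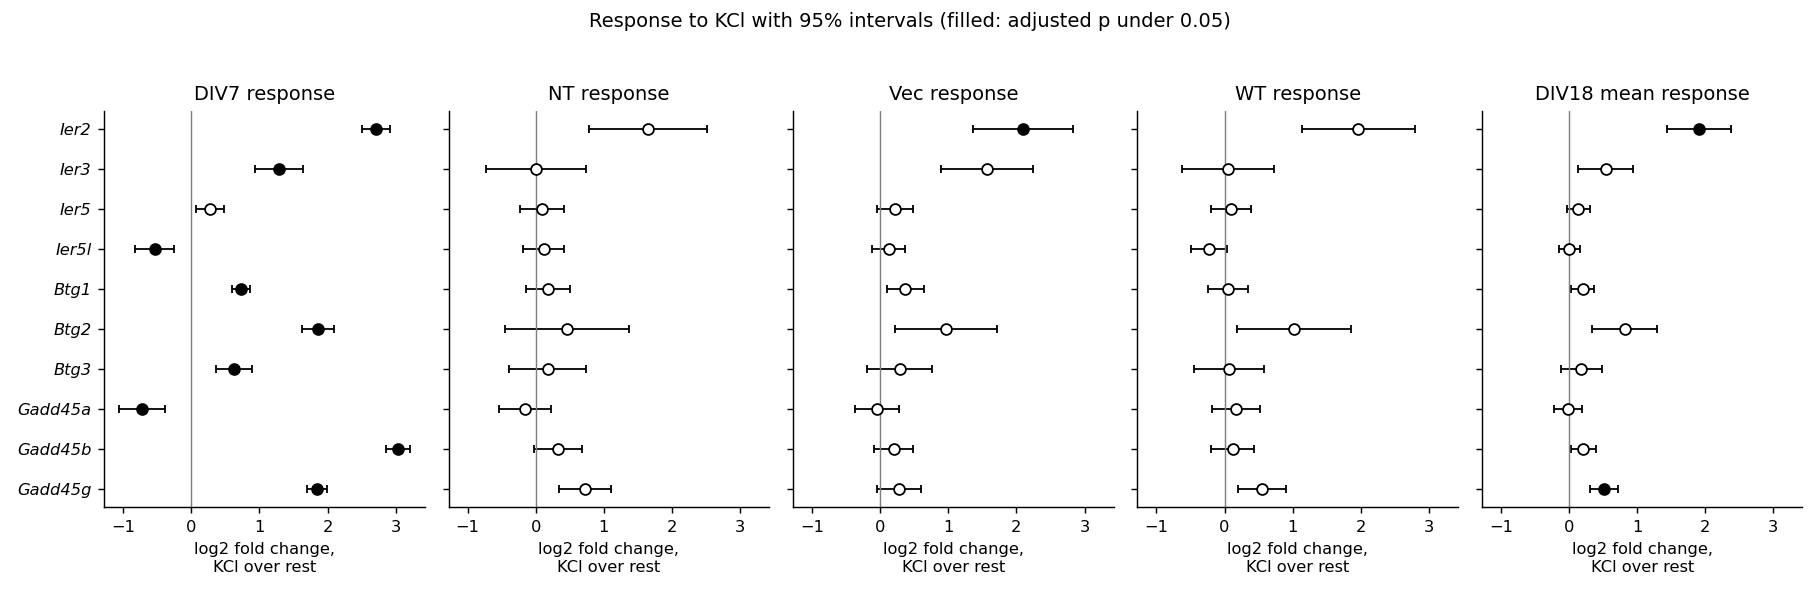
Log2 fold change of each gene under KCl over rest, with 95% intervals, at DIV7, in the 3 DIV18 constructs with both states, and for the mean of those 3; filled points have an adjusted p under 0.05. At DIV7 Gadd45b (3.03) and Ier2 (2.71) lie farthest right and Gadd45a (-0.72) and Ier5l (-0.54) left of 0, and at DIV18 Ier2 (1.90) lies farthest right.

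Genes of the pathways around the members moved in both directions. Of 15 tested genes of the Btg-related Tob proteins and the CCR4-NOT complex, 3 rose and 3 fell at DIV7. Those that rose were Tob2 (log2 fold change 1.57) and Tob1 (0.46), the antiproliferative relatives of the Btg genes, and the poly(A)-binding protein gene Pabpc1 (0.17). The CCR4-NOT genes Cnot10 (-0.46), Cnot3 (-0.40) and Cnot6l (-0.35) fell. The list's median was 0.063, against -0.0014 over all genes. Of 17 genes of Gadd45 partners and DNA demethylation, none rose, and the p38 pathway genes Map2k3 (-0.49) and Mapk11 (-0.40) fell. Of 9 genes of PP2A with its B55 subunits and HSF1, 3 rose slightly: Ppp2r2a (0.20), Ppp2ca (0.19) and Ppp2cb (0.19). Of 12 p53 target genes, Sesn2 (0.34) rose and Trp53inp1 (-0.78) fell. The share of genes called over the whole table was 7.34% higher and 9.67% lower, as above.

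At DIV18 the response to KCl was tested in each construct and as the mean over NT, Vec and WT (7 resting and 8 depolarized libraries). The mean response called 2 of the 10 members, Ier2 and Gadd45g, both higher, against 0.368% of 20940 genes called higher. The members' median was 0.21 and that of all genes -0.0020. In NT, none of the 10 members was called, where 0.00955% of genes were called at all, and 2 members had an unadjusted p under 0.05. In the knockout with vector 1 member was called, Ier2, against 0.0621% of genes called higher. In WT none was called, against 0.043% of genes, and 3 members had an unadjusted p under 0.05. Fos was not called in NT either (log2 fold change 3.36 (SE 0.614, adjusted p = 0.0912)), though its NT libraries did not overlap. A member not called in NT may therefore still have risen there. Fos was called in Vec (3.80, adjusted p = 0.00329), in WT (4.52, adjusted p = 0.00567) and for the mean (3.90, adjusted p = 4.13e-06).

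Ier2 stood at 14.5 and 14.9 CPM in the resting and 64.9 and 27.5 in the depolarized NT libraries. In the knockout with vector it stood at 9.10, 12.2 and 12.2 at rest and 54.2, 55.4 and 33.2 under KCl. In WT it stood at 14.3 and 15.0 at rest and 94.6, 51.7 and 25.3 under KCl. Depolarized libraries lay above resting ones in every construct, and over the 20 libraries, with S586E (8.35, 14.9 and 11.7 at rest) and S586A (60.8 and 58.6 under KCl), the highest resting value was below the lowest depolarized one. The log2 fold change was 1.65 (SE 0.442, adjusted p = 0.688) in NT, 2.09 (SE 0.375, adjusted p = 0.0387) in Vec, 1.97 (SE 0.421, adjusted p = 0.182) in WT and 1.90 (SE 0.240, adjusted p = 0.000398) for the mean. The mean response of Ier2 was called under each of 22 alternatives. The Vec call was not: its adjusted p was 0.287, 0.117 and 0.0884 without resting Vec replicates 1, 2 and 3, and 0.172 and 0.235 without depolarized Vec replicates 1 and 2. Without depolarized WT replicate 3 Ier2 was called in WT (2.32, adjusted p = 0.00738), as it was with DESeq2 (1.97, adjusted p = 0.0188), and without depolarized NT replicate 1 its NT value was 0.90.

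The Btg genes were not called at DIV18. Btg2 stood at 17.0 and 22.7 CPM at rest and 38.3 and 16.2 under KCl in NT. It stood at 20.6, 21.3 and 15.8 at rest and 44.5, 43.4 and 25.1 under KCl in Vec, and at 21.2 and 22.7 at rest and 77.4, 37.3 and 18.8 under KCl in WT. The groups overlapped in NT and WT and not in Vec, and over all constructs 8 of 10 depolarized libraries lay above the highest resting one. The mean log2 fold change was 0.82 (SE 0.245, adjusted p = 0.252) with a 95% interval of 0.34 to 1.30. It was called without depolarized WT replicate 3 (adjusted p = 0.0485). Without the low-count filter it hardly moved (0.81), but its adjusted p was 1.36e-22. Depolarized libraries at 16.2 and 18.8 CPM lay among the resting ones, so that p-value does not reflect the spread between libraries. In NT the Btg2 value was -0.29 without depolarized NT replicate 1, against 0.46 with it. Btg1 had a mean log2 fold change of 0.20 (SE 0.0876, adjusted p = 0.571), with resting libraries at 14.5 to 22.7 CPM and depolarized ones at 17.1 to 24.5. Btg3 had one of 0.18 (SE 0.153, adjusted p = 0.834), at 1.76 to 4.08 and 1.89 to 4.38 CPM.

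Gadd45b, the member with the largest rise at DIV7, was not called at DIV18. It stood at 13.9 and 16.6 CPM at rest and 17.6 and 20.6 under KCl in NT, and at 16.4, 21.1 and 21.2 and then 20.1, 21.0 and 26.3 in Vec. In WT it stood at 18.6 and 19.1 at rest and 18.5, 19.6 and 23.2 under KCl. The mean log2 fold change was 0.21 (SE 0.0943, adjusted p = 0.580), and its 95% interval of 0.03 to 0.40 lay below the DIV7 value of 3.03. Gadd45g stood at 27.4 and 18.8 CPM at rest and 37.1 and 39.2 under KCl in NT, at 22.2, 24.4 and 26.3 and then 30.0, 33.5 and 24.6 in Vec, and at 28.2 and 24.02 and then 47.4, 38.5 and 28.8 in WT. The depolarized libraries lay above the resting ones in NT and WT and overlapped with them in Vec. Its mean log2 fold change was 0.52 (SE 0.103, adjusted p = 0.0298). Gadd45a had a mean log2 fold change of -0.01 (SE 0.105, adjusted p = 0.991), with resting libraries at 5.68 to 9.36 CPM and depolarized ones at 6.13 to 8.99.

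The Gadd45g call was lost without any 1 of 10 libraries. Its mean log2 fold change stayed between 0.43 and 0.61 over 22 alternatives. Its adjusted p was 0.138 without resting NT replicate 2, 0.0648 and 0.0549 without resting Vec replicates 1 and 2, and 0.0878 and 0.119 without resting WT replicates 1 and 2. It was 0.0859 and 0.0901 without depolarized NT replicates 1 and 2, 0.0627 and 0.0717 without depolarized Vec replicates 1 and 2, and 0.0532 without depolarized WT replicate 2.

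The other Ier genes were not called at DIV18 either. Ier5 stood at 75.8 to 95.6 CPM in 10 resting libraries (median 89.9) and 74.2 to 125 in 10 depolarized ones (median 105), with a mean log2 fold change of 0.14 (SE 0.0864, adjusted p = 0.757). Ier5l stood at 22.7 to 35.5 and 24.9 to 36.8 CPM, with a mean log2 fold change of 0.01 (SE 0.0793, adjusted p = 0.998). The mean log2 fold change of Ier3 was 0.54 (SE 0.207, adjusted p = 0.487), and its constructs are described below.

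**Figure D3:**
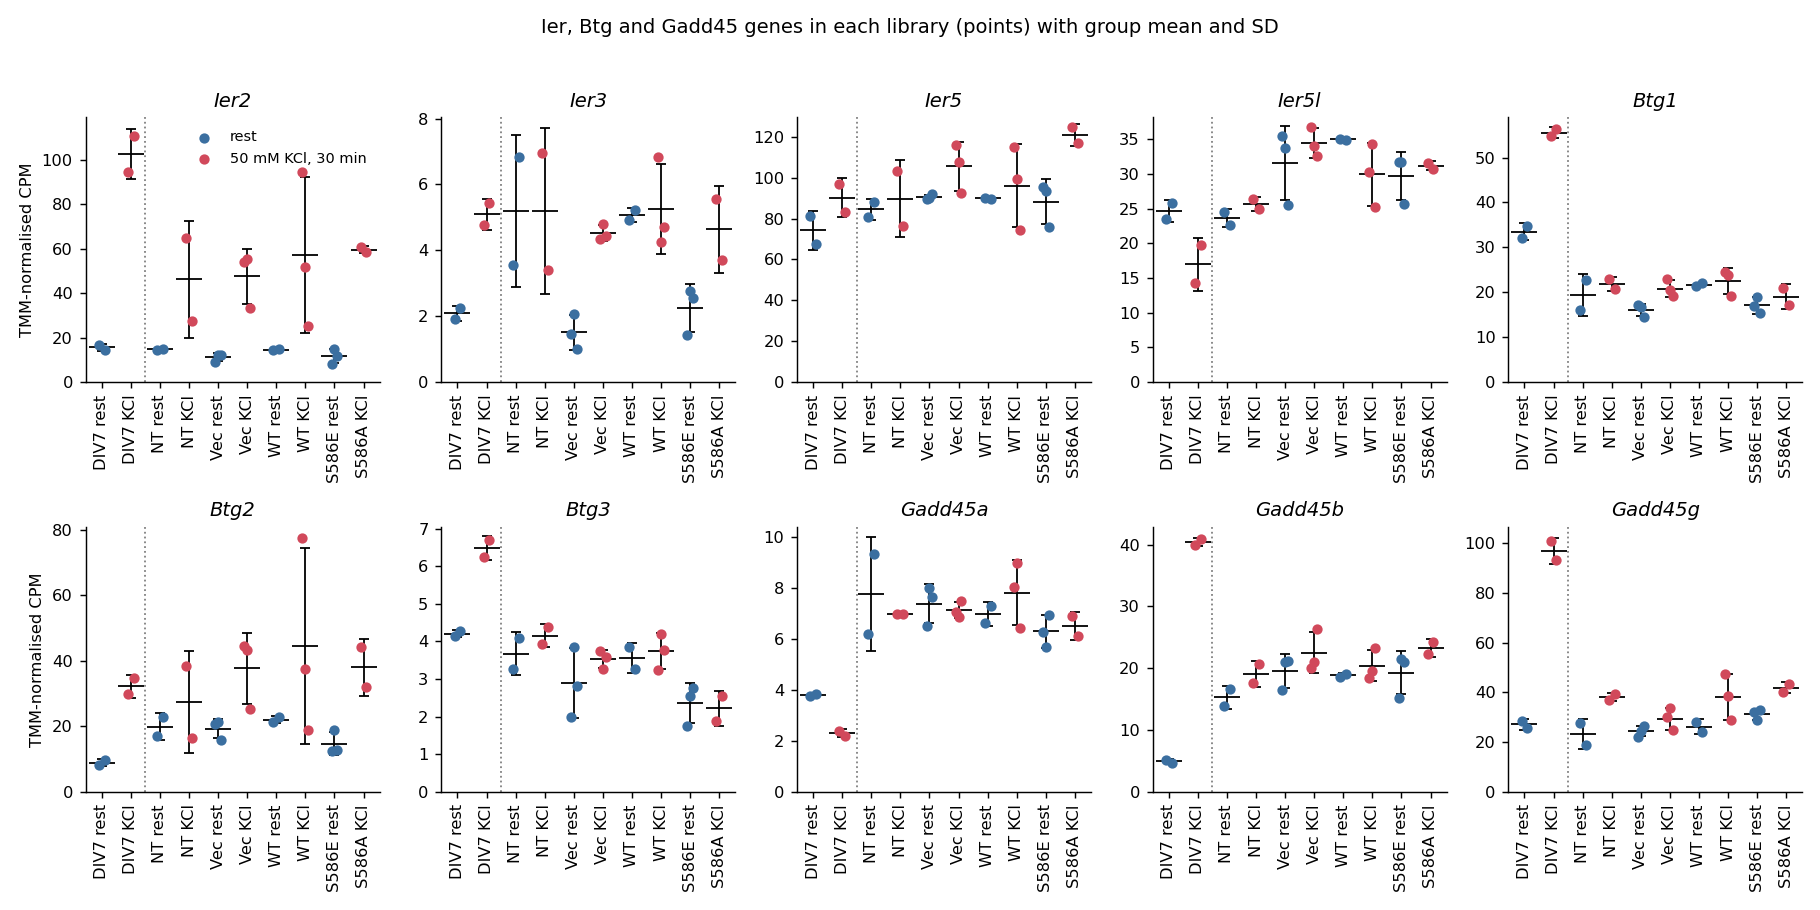
CPM of each gene in every library (points), with the group mean and SD (black), at rest (blue) and under KCl (red); the dotted line separates DIV7 from DIV18, which were normalised separately. Ier2 is higher under KCl in every construct, Gadd45b rises from 5.16 and 4.67 to 39.9 and 40.8 CPM at DIV7 and overlaps between states at DIV18, and Ier3 at rest lies lowest in Vec (1.45, 2.06 and 1.02).

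Depolarized libraries of 1 construct differed among themselves, and the same libraries were low in several genes. Depolarized WT replicate 3, NT replicate 2 and Vec replicate 3 had the 3 lowest Fos values of the 10 depolarized DIV18 libraries, at 32.7, 38.5 and 51.2 CPM. The others held 99.8 to 197. The same 3 libraries were the lowest in Ier2 (25.3 to 33.2 CPM, the others 51.7 to 94.6), in Btg2 (16.2 to 25.1, the others 31.9 to 77.4) and in Ier5 (74.2 to 92.6, the others 99.3 to 125). Depolarized WT replicate 1 was the highest of the 10 in Fos, Ier2 and Btg2. Gadd45b followed another order, with Vec replicate 3 the highest (26.3 CPM) and NT replicate 1 the lowest (17.6). The libraries were not set apart by these values in any test.

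**Figure D4:**
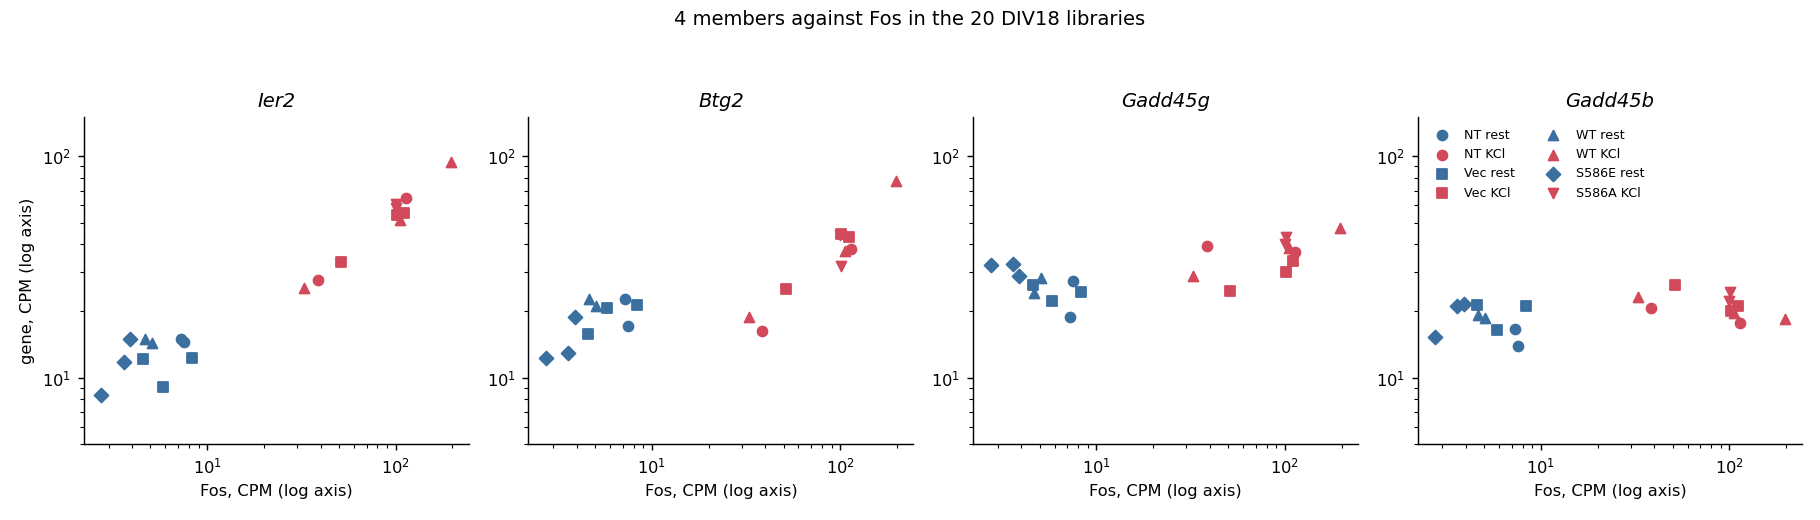
Ier2, Btg2, Gadd45g and Gadd45b against Fos (CPM, both axes log) in the 20 DIV18 libraries, by construct (marker) and state (blue rest, red KCl). Ier2 and Btg2 climb with Fos among the depolarized libraries, from 25.3 and 18.8 CPM in WT replicate 3 to 94.6 and 77.4 in WT replicate 1, and Gadd45b stays between 17.6 and 26.3.

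By the pattern over the 20 DIV18 libraries, the genes nearest to Ier2 were Arc, Nr4a1 and Junb, with root mean square differences of 0.166, 0.231 and 0.239 on the centred log2(CPM + 1) scale, against a standard deviation of 1.07 for Ier2 itself. The nearest to Btg2 were Dusp1 (0.239), Gm38257 (0.294) and Gm13889 (0.367), against a standard deviation of 0.669. The nearest to Gadd45b were Swt1 (0.130), Zfp78 (0.133) and Slc26a6 (0.134), against one of 0.215. Arc, Nr4a1, Junb and Dusp1 are themselves known early-response genes. These distances are a description over libraries that share cultures and states.

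The responses at DIV7 and in DIV18 NT neurons were compared in a fit of all 24 libraries. The difference was called for 2 of the 10 members, both larger at DIV7, Gadd45b by 2.73 on the log2 scale (SE 0.246, adjusted p = 8.66e-07) and Gadd45g by 1.14 (SE 0.259, adjusted p = 0.0209). Of 22459 genes, 0.49% were called in that direction. The Gadd45b difference was called under each of 14 alternatives. The Gadd45g difference had an adjusted p of 0.0666 and 0.116 without resting DIV7 replicates 1 and 2, 0.0971 and 0.0560 without depolarized DIV7 replicates 1 and 2, 0.168 without resting NT replicate 1, and 0.0911 and 0.0674 without depolarized NT replicates 1 and 2. The other 8 members were not called. Their differences were 1.41 for Btg2 (SE 0.631, adjusted p = 0.386), 1.30 for Ier3 (SE 0.516, adjusted p = 0.297), 1.08 for Ier2 (SE 0.582, adjusted p = 0.528), 0.57 for Btg1 (SE 0.216, adjusted p = 0.253), 0.46 for Btg3 (SE 0.367, adjusted p = 0.743) and 0.21 for Ier5 (SE 0.233, adjusted p = 0.851). Below 0 lay Ier5l at -0.64 (SE 0.230, adjusted p = 0.222) and Gadd45a at -0.55 (SE 0.282, adjusted p = 0.493). The difference for Fos was 3.88 (SE 0.840, adjusted p = 0.0150). Age, RNA selection, the guide RNA and DMSO all differed between these cultures and cannot be told apart.

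Loss of Smarcc2 was not followed by a called change in the response of any member. The difference of the Vec and NT responses was called for none of the 10 members and for 0% of 20940 genes, with 1 member and 1845 genes at an unadjusted p under 0.05. The difference of the WT and Vec responses was likewise called for none and for 0% of genes, with 1 member and 768 genes at an unadjusted p under 0.05. For Ier2 the difference of Vec and NT was 0.44 with a 95% interval of -0.68 to 1.56, and for Gadd45g it was -0.44 (-0.94 to 0.05). The member below 0.05 in both was Ier3, at 1.56 for Vec minus NT (SE 0.513, adjusted p = 0.472) and -1.52 for WT minus Vec (SE 0.486, adjusted p = 1). Both differences use the same Vec libraries.

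Ier3 at rest was the 1 member called between constructs in the main fits, at low counts and not under every setting. It stood at 3.57 and 6.84 CPM in resting NT and 1.45, 2.06 and 1.02 in resting Vec libraries, and these did not overlap. The log2 fold change was -1.77 (SE 0.369, adjusted p = 0.00905), and Ier3 was the 1 member of 10 called lower, against 3.77% of genes. The counts behind it were 84 and 149 in NT and 27, 39 and 16 in Vec. In WT at rest Ier3 stood at 4.93 and 5.22 CPM, above every resting Vec library, with a log2 fold change over Vec of 1.73 (SE 0.370, adjusted p = 0.109), and none of the members was called there (0.0143% of genes). DESeq2 called that difference of Ier3 (adjusted p = 0.00442). In S586E at rest it stood at 1.43, 2.78 and 2.56 CPM, below WT, with a log2 fold change of -1.16 (SE 0.356, adjusted p = 0.190) against WT and 0.57 (SE 0.356, adjusted p = 0.800) against Vec. Under KCl the constructs overlapped, with NT at 6.96 and 3.42, Vec at 4.35, 4.80 and 4.43, WT at 6.83, 4.24 and 4.70 and S586A at 5.57 and 3.70 CPM. Within Vec, the depolarized libraries were all above the resting ones, with a log2 fold change of 1.57 (SE 0.347, adjusted p = 0.146, and 0.00459 with DESeq2), while the change was 0.00 in NT and 0.05 in WT. Without resting NT replicate 2 the difference of Vec and NT at rest was -1.23 (adjusted p = 0.280), and in a fit of the 2 groups alone it was -1.76 (adjusted p = 0.0738).

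Markers of other cells moved with the same contrast. Resting NT libraries held 497 to 512 summed CPM of 5 astrocyte markers and resting Vec libraries 118 to 429, with 1 of 5 called lower. For 7 markers of the oligodendrocyte lineage the sums were 184 to 191 and 132 to 141, with 4 of 7 called lower and Sox10 at 0 in Vec. For 4 markers of dividing cells they were 14.9 to 29.8 and 1.75 to 4.28, with 3 of 4 lower. For 6 microglial markers they were 7.26 to 8.31 and 4.22 to 4.64, with 1 of 4 tested lower and C1qa at 0 in Vec. For 7 markers of fibroblasts and vessels they were 11.6 to 14.8 and 7.99 to 16.4, with none called and Cldn5 at 0 in both. For 7 neuronal markers they were 4948 to 4958 and 4673 to 5329, with none called. WT at rest held 358 to 404 of the astrocyte, 107 to 130 of the oligodendrocyte and 3.29 to 4.72 of the dividing-cell markers. Its microglial sums were 6.25 to 9.40, above those of Vec, with C1qa at 0. Its sums were 12.6 to 13.1 for fibroblasts and vessels and 4572 to 4952 for neurons. S586E at rest held 347 to 398 of the astrocyte, 134 to 156 of the oligodendrocyte and 2.76 to 4.62 of the dividing-cell markers. Its sums were 5.59 to 6.78 for microglia, 10.8 to 12.4 for fibroblasts and vessels and 4981 to 5984 for neurons. No marker was called between WT and Vec at rest. The part of these cells in the Ier3 result was not tested.

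No other difference between constructs was called for a member by the edgeR test of all 8 groups. At rest, Ier5l stood at 24.6 and 22.7 CPM in NT and 35.5, 33.8 and 25.5 in Vec (log2 fold change 0.42 (SE 0.139, adjusted p = 0.0835)), and under KCl at 26.3 and 24.9 and 36.8, 34.0 and 32.7 (0.43 (SE 0.139, adjusted p = 0.111)), with no overlap in either state. Other settings called it: at rest DESeq2 (0.43, adjusted p = 0.0401), coding transcripts alone (0.46, adjusted p = 0.0358) and the fit without resting Vec replicate 3 (0.55, adjusted p = 0.0202), and under KCl a fit of the 2 groups alone (0.44, adjusted p = 0.0438). With wild-type addback Ier5l stood at 35.1 and 35.0 CPM at rest, within the range of Vec and above NT. It stood at 30.3, 34.3 and 25.2 under KCl. The log2 fold change of WT over Vec was 0.14 at rest (adjusted p = 0.744) and -0.20 under KCl (adjusted p = 0.999). Ier5l stood at 31.7, 31.7 and 25.7 CPM in resting S586E and at 31.6 and 30.7 in depolarized S586A libraries. Under KCl none of the members was called between Vec and NT, against 2.67% of genes. WT against Vec under KCl called none (0.00955% of genes), and the largest member difference was Gadd45g at 0.38 (95% interval 0.07 to 0.69). S586E against WT at rest and S586A against WT under KCl called no member and 0% of genes each. Smarcc2 itself was 0.64 and 0.54 higher on the log2 scale in these 2 comparisons (adjusted p = 0.114 and 0.338). Its level and the substitution cannot be told apart there. S586E against Vec at rest called no member (0.0191% of genes), and S586A against Vec under KCl none (0.00955%). In those last comparisons Gadd45g was 0.36 higher in S586E than in Vec (95% interval 0.05 to 0.68, adjusted p = 0.633) and 0.51 higher in S586A than in Vec (0.16 to 0.85, adjusted p = 0.245). Btg3 was -0.75 in S586A against WT under KCl (1.89 and 2.55 CPM against 3.24, 4.20 and 3.76, adjusted p = 0.515), with no overlap between the groups.

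At DIV18 the related pathway lists were quiet. None of their genes was called in the NT, Vec or WT response, and in the mean response 1 was, the DNA demethylase gene Tet2 (0.36, higher). Between Vec and NT at rest, Pabpc1 (-0.45), Mapk11 (-0.58), the p53 target and Gadd45 partner Cdkn1a (-0.66) and the cell-cycle kinase gene Cdk1 (-3.20, at a mean of 0.350 CPM) were lower, against 3.77% of genes. Cdk1 is also among the markers of dividing cells above. Under KCl the PP2A scaffold gene Ppp2r1a was lower (-0.49) and the p53 target Bbc3 higher (0.45), against 2.67% of genes called in either direction.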

How the data were processed

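RNA was measured in 24 libraries of cultured mouse cortical neurons. Per the file headers, the deposited tables give for each transcript the authors' estimated count, its TPM and its effective length. Per the submitters' processing notes the tools were FastQC, cutadapt and kallisto. Versions, genome build, annotation and strand setting are not given in the sources used here. Of 142552 transcripts, 141429 (99.2%) matched GENCODE M21. The other 1123 held at most 0.467% of a library's counts and were left out.

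For each gene the estimated counts of its transcripts were added up and rounded. The deposited TPM values were summed per gene to compare levels per length. The main test was edgeR 4.0.16 in R 4.3.3 (two-sided quasi-likelihood F test, TMM, filterByExpr, Benjamini-Hochberg adjustment over all genes tested), with calls at an adjusted p under 0.05. DIV7 was fitted alone (19822 genes), DIV18 in 8 groups (20940 genes) and both ages together (22459 genes) for the difference of responses. The biological coefficient of variation came to 6.44% at DIV7 (2 residual degrees of freedom) and 14.6% at DIV18 (12). Standard errors follow from the F statistic, and 95% intervals are 1.96 SE, from the normal distribution. With few degrees of freedom these intervals are narrower than the F test implies, most of all at DIV7. The fits were tested on simulated data. In 16 comparisons the 10 members were counted.

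The members and the lists were chosen with earlier results of these data known. Every member was named in the text, with Smarcc2 and Fos, up to 4 called genes a direction of each pathway list, and the 3 genes nearest to Ier2, Btg2 and Gadd45b. Across 11236 genes, same-numbered libraries deviated together in Vec at rest and under KCl (correlations 0.141, 0.223 and 0.386). They also did in Vec and WT under KCl (0.303, 0.247 and 0.443), and in Vec and S586E at rest (0.345, 0.253 and 0.364). The replicate numbers were taken to pair these libraries, but the main tests fitted group alone and did not use the pairing. Groups that share only 2 numbers gave correlations of either sign, from -0.242 (WT at rest and under KCl) to 0.35 (WT and S586E at rest). The alternatives were other size factors, DESeq2 1.42.0, no low-count filter, the replicate block, effective-length offsets, coding transcripts alone, a fit of the compared groups alone, and leaving out each library. Where that left 1 library in an arm, it was assumed to vary like the other groups.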

Additional observations from a re-analysis of the deposited data

Results flagged for a closer look

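The response to KCl differed between DIV7 and DIV18 NT neurons for Gadd45b and Gadd45g, by a test of the difference itself in a fit of all 24 libraries (edgeR quasi-likelihood test, Benjamini-Hochberg adjustment over 22459 genes). Gadd45b rose by 2.73 more on the log2 scale at DIV7 (SE 0.246, adjusted p = 8.66e-07), where it went from 5.16 and 4.67 CPM at rest to 39.9 and 40.8 under KCl, against 13.9 and 16.6 at rest and 17.6 and 20.6 under KCl in NT. Gadd45g rose by 1.14 more (SE 0.259, adjusted p = 0.0209), from 28.6 and 25.6 to 101 and 93.4 CPM at DIV7 and from 27.4 and 18.8 to 37.1 and 39.2 in NT. The Gadd45g difference was called under 7 of 14 alternatives and the Gadd45b difference under 14 of 14. The cultures differed in age, RNA selection, guide RNA and DMSO, which cannot be told apart.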

How the results depend on the processing

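Over 16 comparisons the count of members called stayed within 1.5 times its main value in 168 pairs of a setting and a comparison. It was larger in 21 and smaller in 27. In most comparisons no member was called in the main fit, and a count that stayed at 0 is among the 168. The loss of the Ier5l, Btg3 and Gadd45a calls together at DIV7 also stays within that limit. Of the refitted log2 fold changes of single members, 636 kept their direction and their side of the threshold, 15 gained a call, 43 lost one and 26 changed sign. The 7 refits and leaving out each library moved the median of all genes by at most 0.0268.

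Without the low-count filter the counts were 2 in NT, 3 in Vec and 3 in WT responses, 1 for Vec minus NT and 1 for WT minus Vec, 4 for DIV7 minus NT, 2 for Vec against NT at rest and 2 under KCl, 1 for WT against Vec at rest, 2 for S586E against WT at rest and 1 for S586A against Vec under KCl. The calls gained were of Ier2, Ier3, Ier5l, Btg2 and Gadd45g, and at DIV7 of Ier5. Fold changes hardly moved in this setting while adjusted p-values fell far. For Ier2 in NT, with depolarized libraries at 64.9 and 27.5 CPM, the adjusted p went from 0.688 to 1.16e-26 at a log2 fold change of 1.65. Such p-values do not reflect the spread between libraries. Coding transcripts alone gave 0 in the Vec response, 1 in the DIV18 mean response and 2 for Vec against NT at rest (Ier5l gained). DESeq2 gave 2 in Vec (Ier3 gained), 1 in WT (Ier2), 2 for Vec against NT at rest (Ier5l gained) and 1 for WT against Vec at rest (Ier3). Fitting the compared groups alone gave 1 in the DIV18 mean response, 0 for Vec against NT at rest and 1 under KCl (Ier5l). The causes were not tested.

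With the replicate block 2 members were called for Vec against NT at rest and 1 under KCl, Ier5l being the one gained in both (0.51 and 0.53, adjusted p = 0.00332 and 0.00514). At DIV7 the block raised the count from 9 to 10 by Ier5 (0.28, adjusted p = 0.000236), where same-numbered libraries correlated at 0.309. These groups share only 2 numbers each, so that the labels and the data do not settle whether the numbers pair them. The counts of the Vec response, Vec against WT and Vec against S586E did not change with the block. Crossing the NT numbers, tried after seeing the data because the NT states correlated at -0.211, gave 0 members in the NT response, as without it.

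Leaving out 1 library gave 0 to 1 members in the Vec response, 0 to 1 in WT, 1 to 3 in the DIV18 mean response, 1 to 2 for DIV7 minus NT and 0 to 2 for Vec against NT at rest. At DIV7 it cost Ier5l, Btg3 and Gadd45a their calls in several fits, as given above. Their log2 fold changes then ran from -0.78 to -0.32, 0.57 to 0.67 and -0.79 to -0.66. Length offsets lost the same calls at DIV7 (adjusted p = 0.0808, 0.124 and 0.241). Leaving out 1 library also turned the sign of uncalled values. In the NT response these ran from -0.61 to 0.54 for Ier3, -0.15 to 0.29 for Ier5, -0.058 to 0.44 for Btg1, -0.29 to 0.94 for Btg2 and -0.43 to 0.17 for Gadd45a. In Vec they ran from -0.0065 to 0.22 for Ier5l and -0.13 to 0.015 for Gadd45a. In WT they ran from -0.18 to 0.18 for Ier3, -0.050 to 0.25 for Ier5, -0.012 to 0.16 for Btg1 and -0.048 to 0.19 for Btg3. In the DIV18 mean they ran from -0.038 to 0.041 for Ier5l and -0.10 to 0.093 for Gadd45a. Length offsets gave -0.21 for Btg1 and -0.14 for Btg3 in WT, and coding transcripts alone gave 0.018 for Gadd45a in Vec and 0.048 in the DIV18 mean. Depth limits Ier3, which rests on 16 to 39 counts in the resting Vec libraries.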
